A study of Mus musculus with 18 samples.

Results

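Microglia are the resident macrophages of the brain. In the undisturbed brain they express a set of receptors, transporters and secreted factors that sets them apart from other macrophages and lets them sense neurons and nucleotides. After injury they can change this profile, and genes for Fc receptor signalling, lysozyme, antigen presentation and lysosomal proteases are commonly read as signs of activation. The expression of 36 microglial identity and activation genes was examined here in 3 brain regions of mice treated with MPTP, a neurotoxin whose metabolite is taken up by dopaminergic neurons and which is used to model Parkinson's disease. The members were found by gene symbol among 18194 genes on the array, with 1 probe set per gene, that of highest mean over all arrays. From general knowledge of microglia they were divided into 12 resting-state genes, 8 lineage genes shared with other leukocytes, and 16 activation genes.

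Male C57BL/6J mice, 14 weeks old, had been given MPTP at 30 mg/kg or saline by intraperitoneal injection once daily for 5 days, and tissue was taken 4 days after the last dose. Each treatment had 3 arrays for frontal cortex, 3 for striatum and 3 for midbrain, so 18 arrays made up 6 groups: saline cortex, MPTP cortex, saline striatum, MPTP striatum, saline midbrain and MPTP midbrain. The labels call the replicates biological and do not say whether arrays of 1 number in different regions came from 1 mouse. All values are log2 expression, so a difference of 1 is a doubling. Genes entered the tests when their mean over the arrays of some region was no lower than the median probe set, 5.18, below which a value was not shown to be above background. Of the 36 members 34 were tested, beside 11741 genes in all.

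Arrays of 1 group correlated at 0.991 to 0.997. The mean of a striatal neuron marker list was 11.14 to 11.24 on the saline striatal arrays against 6.61 to 6.77 on the saline midbrain arrays, and that of a dopamine neuron list was 7.70 to 7.96 on the saline midbrain arrays against 5.12 to 5.30 in saline striatum. The interquartile range of an array, a measure of the spread of its values, ran from 3.37 to 3.65. The lowest among the saline arrays of each region were 3.38 for cortical replicate 2, 3.40 for striatal replicate 1 and 3.37 for midbrain replicate 2. The 3′ minus 5′ difference of the Gapdh control probe sets lay between -0.11 and 0.10 on all arrays, and that of Actb between 0.32 and 0.56. The transcript of tyrosine hydroxylase, Th, was 8.84 in saline and 8.02 in MPTP midbrain (log2 change -0.82, SE 0.29, limma adjusted p = 0.133).

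The first comparison was of MPTP with saline in striatum, the target field of the midbrain dopamine neurons. Here 9 of 34 microglial genes were higher after MPTP and none was lower. They were 5 resting-state genes, 1 lineage gene and 3 activation genes, with log2 changes from 0.32 to 0.84. Over all tested genes 1.29% were called higher and 0.809% lower by limma with Benjamini-Hochberg adjustment at an adjusted p under 0.05. The median change of the members was 0.33, beside -0.03 for all tested genes. At an unadjusted p under 0.05 stood 21 members, each with a positive difference, beside 16.3% of all tested genes in either direction. RNA was taken from whole tissue, so more microglia, more RNA of these genes per cell and RNA from other cell types cannot be told apart.

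Among the resting-state genes, Cx3cr1 (probe set 1450020_at), the receptor through which microglia sense the neuronal chemokine fractalkine, measured 8.83, 8.85 and 8.76 on the saline striatal arrays and 9.41, 9.12 and 9.35 on the MPTP arrays. All 3 MPTP values lay above all 3 saline values, and the change was 0.48 (SE 0.10, limma adjusted p = 0.0121), or 1.39-fold. The second Cx3cr1 probe set differed by 0.67 in striatum, 0.14 in midbrain, 0.25 in cortex and 0.35 in the mean over the regions. Gpr34 (1422542_at), a lysophospholipid receptor, was 6.06, 6.12 and 6.12 in saline and 7.02, 6.42 and 6.53 in MPTP striatum. The groups did not overlap, the saline arrays lay close together, and MPTP replicate 1 stood well above the other MPTP arrays. Its change was 0.55 (SE 0.13, limma adjusted p = 0.0242).

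Fcrls (1448891_at), an Fc receptor-like gene used as a marker of mouse microglia, was 7.77, 7.82 and 7.76 in saline and 8.43, 8.07 and 8.28 in MPTP striatum, a change of 0.48 (SE 0.12, limma adjusted p = 0.0373). Olfml3 (1448475_at), which encodes a secreted olfactomedin-like protein, was 8.15, 8.12 and 7.82 in saline and 8.55, 8.30 and 8.47 in MPTP striatum (0.41, SE 0.11, limma adjusted p = 0.049). Csf1r (1419872_at), the receptor for the growth factors on which microglia depend for survival, was 10.61, 10.66 and 10.65 in saline and 10.99, 10.77 and 11.12 in MPTP striatum. Its groups did not overlap, nor did those of Fcrls and Olfml3. Csf1r changed by 0.32 (SE 0.08, limma adjusted p = 0.0409), and its other probe sets by 0.22 and 0.26.

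The remaining resting-state genes did not pass the threshold in striatum. The purinergic receptor gene P2ry12, by which microglial processes sense nucleotides, was 8.01, 8.0 and 7.89 in saline and 8.40, 8.32 and 8.28 in MPTP striatum, with no overlap (0.36, SE 0.13, limma adjusted p = 0.13). Selplg, the P-selectin ligand, differed by 0.30 (adjusted p = 0.0892), also without overlap. The phagocytic receptor kinase gene Mertk and the TGF-beta receptor gene Tgfbr1 had differences of 0.34 and 0.30 with overlapping groups. Tmem119, a transmembrane marker of microglia, was 7.36, 7.39 and 7.35 in saline and 7.47, 7.18 and 7.33 in MPTP striatum (-0.04, SE 0.10). Siglech, a sialic acid-binding lectin gene, was 6.54, 6.69 and 6.42 in saline and 6.50, 6.47 and 6.42 in MPTP striatum (-0.08, SE 0.12). For Siglech the MPTP values lay among the saline values, and for Tmem119 MPTP arrays lay on both sides of them.

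**Figure D1:**
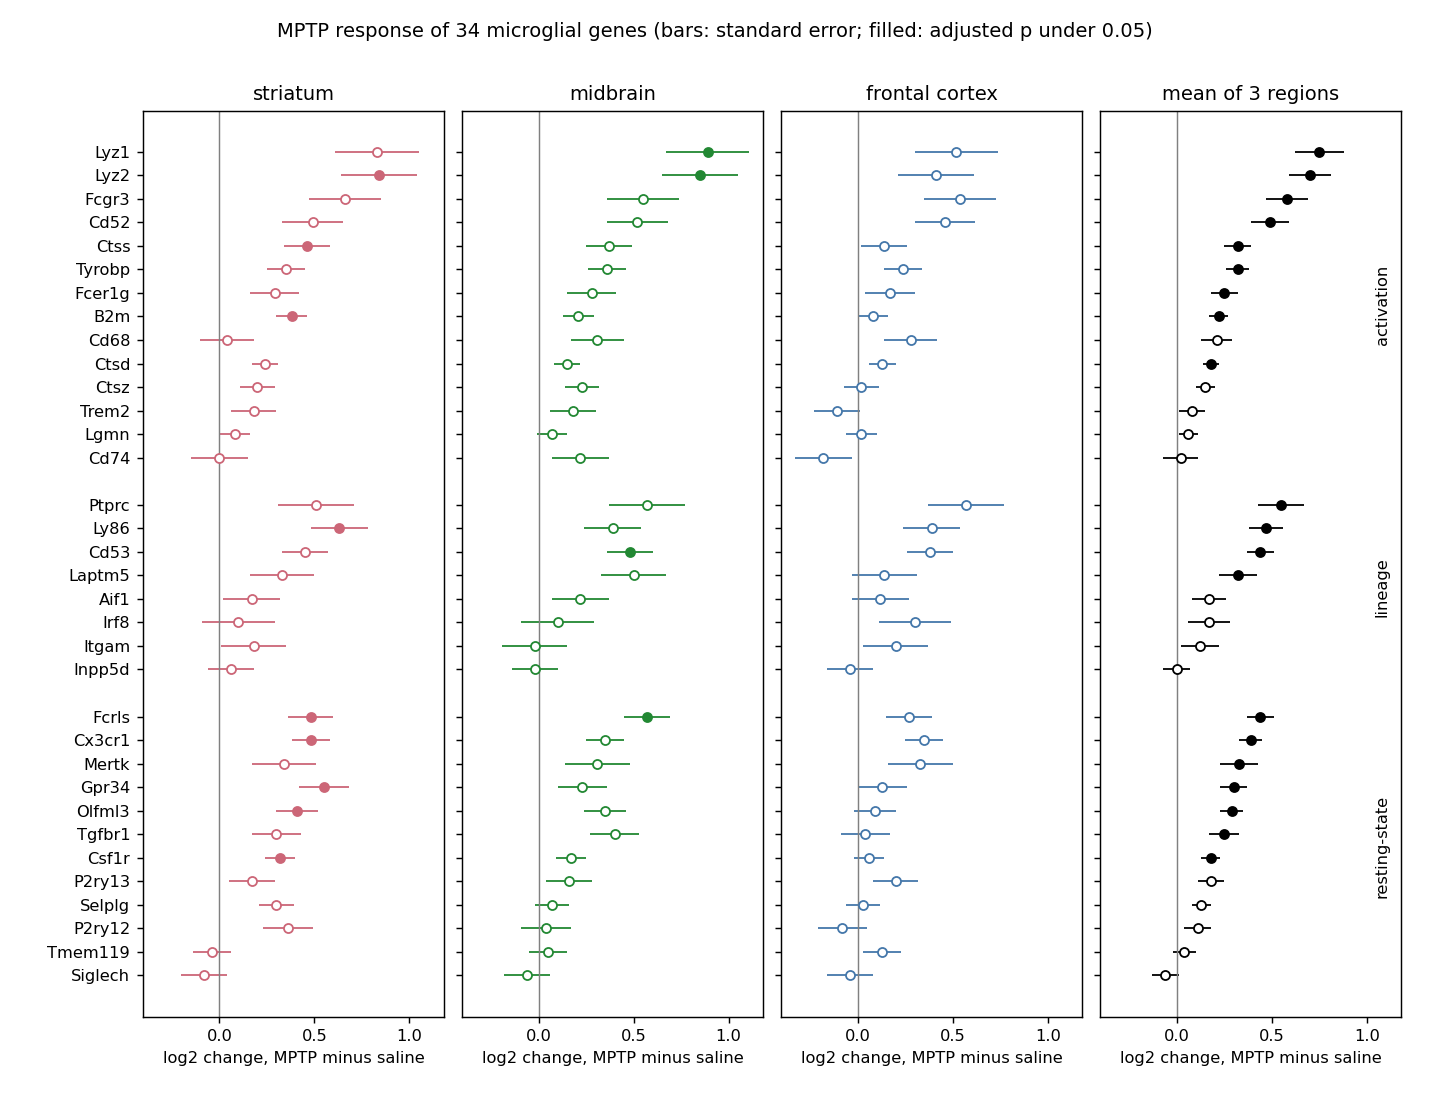
Log2 change (MPTP minus saline) of the 34 tested microglial genes, 1 row per gene grouped by class, in striatum, midbrain, frontal cortex and as the mean over the regions. Points are limma estimates from 3 arrays per group, bars are standard errors, and filled points have an adjusted p under 0.05: 9 in striatum, 4 in midbrain, 0 in cortex and 20 in the mean.

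Of the 8 lineage genes 1 was called in striatum. Ly86 (1422903_at), which encodes the MD-1 partner of a Toll-like receptor homologue, was 8.11, 8.12 and 8.03 in saline and 8.74, 8.53 and 8.88 in MPTP striatum. All MPTP arrays lay above all saline arrays, and the change was 0.63 (SE 0.15, limma adjusted p = 0.0271), or 1.55-fold. The tetraspanin gene Cd53 (0.45, adjusted p = 0.0514), the leukocyte phosphatase gene Ptprc (0.51, adjusted p = 0.198, with a saline mean of 5.02 below the filter value) and the lysosomal membrane gene Laptm5 (0.33, adjusted p = 0.357) had MPTP values above all saline values without passing the threshold. Aif1, which encodes the microglial stain IBA1, differed by 0.17 (SE 0.15), the integrin gene Itgam by 0.18, the transcription factor gene Irf8 by 0.10 and the phosphatase gene Inpp5d by 0.06, all with overlapping groups. The second Irf8 probe set differed by 0.30 in striatum.

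The activation genes called in striatum were Lyz2, B2m and Ctss. Lyz2 (1423547_at), the lysozyme gene of macrophages, was 6.35, 6.38 and 6.20 in saline and 7.58, 6.86 and 7.03 in MPTP striatum. Every MPTP array was above every saline array, by 0.84 on average (SE 0.20, limma adjusted p = 0.024), or 1.79-fold. Its paralog Lyz1 (1436996_x_at) was 6.89, 6.84 and 6.52 in saline and 8.21, 7.05 and 7.47 in MPTP striatum, a difference of 0.83 (SE 0.22) that did not pass the threshold (limma adjusted p = 0.0514). On both lysozyme probe sets MPTP replicate 1 was the highest array. B2m (1452428_a_at), the light chain of MHC class I, was 9.80, 9.94 and 9.86 in saline and 10.45, 10.13 and 10.15 in MPTP striatum (0.38, SE 0.08, limma adjusted p = 0.0134). Its second probe set changed by 0.55. Ctss (1448591_at), a lysosomal protease gene of myeloid cells, was 10.12, 10.27 and 10.08 in saline and 10.65, 10.40 and 10.78 in MPTP striatum (0.46, SE 0.12, limma adjusted p = 0.0413).

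The Fc receptor gene Fcgr3 was 7.27, 7.23 and 7.28 in saline and 8.15, 7.46 and 8.15 in MPTP striatum. Its groups did not overlap, and MPTP replicate 2 was nearest to saline (0.66, SE 0.19, limma adjusted p = 0.074). Tyrobp, the adaptor through which several microglial receptors signal, differed by 0.35 (adjusted p = 0.0737) and the cathepsin gene Ctsd by 0.24 (adjusted p = 0.0796), both without overlap. Trem2, a lipid-sensing receptor that signals through Tyrobp, was 7.02, 7.0 and 6.99 in saline and 7.16, 7.19 and 7.19 in MPTP striatum, a difference of 0.18 (SE 0.12, adjusted p = 0.474) that was small beside the fitted spread, though the groups did not overlap. The lysosomal glycoprotein gene Cd68 differed by 0.04 and the MHC class II invariant chain gene Cd74 by 0.00. Over all 34 members, MPTP and saline striatal values did not overlap for 21, all higher after MPTP, beside 8.46% of all tested genes higher without overlap. Among the 21 is Ptprc, which entered the tests through its MPTP arrays and adds no support.

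The lysozyme genes lie side by side on chromosome 10, and their promoters are shown because they had the largest changes among the members in striatum, in midbrain and in the mean over the regions, and are close copies of each other. The 150 bases before the start of each gene, from RefSeq on GRCm38.p6, run 5′ to 3′ below for Lyz1 (chr10:117292869-117293018, minus strand) and Lyz2 (chr10:117282273-117282422, minus strand). No motif that was searched lies in either stretch, so neither has capitals. Aligned end to end, 129 of the 150 positions were identical, or 86.0%. Because the genes are near-identical paralogs, the share of each probe set's signal that came from the other gene was not tested.
Lyz1: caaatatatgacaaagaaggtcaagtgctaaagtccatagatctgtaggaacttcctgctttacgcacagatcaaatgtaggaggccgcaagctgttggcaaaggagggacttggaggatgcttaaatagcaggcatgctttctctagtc
Lyz2: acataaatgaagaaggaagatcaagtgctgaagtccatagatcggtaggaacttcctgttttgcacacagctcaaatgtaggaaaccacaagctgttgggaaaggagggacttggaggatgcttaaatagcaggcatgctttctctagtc

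Microglial genes are known targets of the transcription factor PU.1, and RefSeq promoters of 300 bases (250 before and 50 after the start, GRCm38.p6) were searched for the letters GAGGAA of its core site on both strands. Promoters were found for 29 of the 36 members, 34 in all, and 15 of them (44.1%) held GAGGAA, beside 28.3% of 32851 mouse promoters. By class, 6 of 10 lineage, 4 of 9 resting-state and 5 of 15 activation promoters held it. The letters CACGTG, an E-box, were in 4 (11.8%, beside 7.15% of all) and GAAANNGAA, the interferon-stimulated element, in 5 (14.7%, beside 8.56%). A match is a description of the sequence and not a bound site. The 4 lineage promoters below are shown because each has GAGGAA or its reverse complement, in capitals, within the 150 bases before the start. Cd53 and Laptm5 were called higher after MPTP in the mean over the regions, though the probe sets of Laptm5 disagree. Itgam and Inpp5d were not called there. Aif1, also not called there, has a match in the same stretch and is not shown. The promoters shown are those of Cd53 (chr3:106790150-106790299, minus strand), Laptm5 (chr4:130913166-130913315, plus strand), Itgam (chr7:128062490-128062639, plus strand) and Inpp5d (chr1:87620162-87620311, plus strand). The promoter of Ctss (chr3:95526636-95526785, plus strand) is shown for its GAAANNGAA match, also in capitals.
Cd53: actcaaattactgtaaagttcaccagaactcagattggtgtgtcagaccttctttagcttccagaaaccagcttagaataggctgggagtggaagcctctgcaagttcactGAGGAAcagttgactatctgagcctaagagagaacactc
Laptm5: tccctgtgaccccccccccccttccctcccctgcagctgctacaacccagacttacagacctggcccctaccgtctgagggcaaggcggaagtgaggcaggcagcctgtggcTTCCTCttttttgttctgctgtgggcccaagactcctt
Itgam: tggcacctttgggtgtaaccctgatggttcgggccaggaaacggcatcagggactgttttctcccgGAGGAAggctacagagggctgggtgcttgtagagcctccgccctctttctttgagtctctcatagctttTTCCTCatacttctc
Inpp5d: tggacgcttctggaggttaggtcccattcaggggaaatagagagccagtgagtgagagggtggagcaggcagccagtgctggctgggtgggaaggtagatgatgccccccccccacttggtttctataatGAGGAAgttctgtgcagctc
Ctss: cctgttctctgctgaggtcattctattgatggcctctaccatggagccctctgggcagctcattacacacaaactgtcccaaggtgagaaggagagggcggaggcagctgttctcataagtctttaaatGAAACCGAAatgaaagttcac

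The members' striatal counts depended on single arrays. MPTP replicate 1 had the highest value of its group for 25 of 34 members, and without it no member was called in striatum, beside 0.587% of all tested genes, although the median difference was still 0.25. Without saline replicate 1, 2 or 3 the count was 1, 2 and 1, beside 1.02%, 0.758% and 0.945% of all tested genes. Without MPTP replicate 3 it was 4, beside 1.29%. Without MPTP replicate 2, which had the lowest value for 21 of 34 members, it was 13, beside 2.48%. The share of all tested genes called thus also moved with the array left out. On the array of MPTP replicate 1 the mean of 5 cortical neuron markers was 4.58, against 5.71 and 5.91 on the other MPTP striatal arrays and 5.71 to 6.31 on the saline ones. The part of this difference in tissue makeup in the members' values was not tested.

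In midbrain, which holds the dopamine neuron cell bodies, 4 of 34 members were higher after MPTP and none was lower. They were the resting-state gene Fcrls, the lineage gene Cd53 and both lysozyme genes, whose probe sets are not shown to give separate signals. Limma called 2.15% of all tested genes higher and 0.383% lower. The members' median change was 0.26, beside 0.03 for all tested genes, and 19 members stood at an unadjusted p under 0.05, each with a positive difference, beside 16.6% of all genes in either direction.

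Fcrls was 7.11, 6.74 and 7.17 on the saline and 7.64, 7.38 and 7.71 on the MPTP midbrain arrays (0.57, SE 0.12, limma adjusted p = 0.0139), or 1.48-fold. Cd53 (1448617_at) was 6.73, 6.45 and 6.72 in saline and 7.19, 6.96 and 7.20 in MPTP midbrain (0.48, SE 0.12, limma adjusted p = 0.0342). In both genes replicate 2 was the lowest array of each group, and the groups did not overlap. Lyz1 was 7.31, 6.80 and 7.29 in saline and 8.36, 7.71 and 8.01 in MPTP midbrain (0.89, SE 0.22, limma adjusted p = 0.0318). Lyz2 was 6.90, 6.34 and 6.93 in saline and 7.91, 7.31 and 7.50 in MPTP midbrain (0.85, SE 0.20, limma adjusted p = 0.0215), or 1.80-fold. Both lysozyme genes had saline replicate 2 as their lowest array and MPTP replicate 1 as their highest.

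Just outside the threshold in midbrain were Cx3cr1 (0.35, limma adjusted p = 0.0505) and Tyrobp (0.36, adjusted p = 0.0579), both without overlap. Other resting-state differences were 0.35 for Olfml3, 0.40 for Tgfbr1, 0.23 for Gpr34 and 0.17 for Csf1r, also without overlap and not called. P2ry12 (0.04), Tmem119 (0.05), Selplg (0.07) and Siglech (-0.06) had overlapping groups. Among lineage genes Ptprc differed by 0.57 (adjusted p = 0.138), Laptm5 by 0.50 (adjusted p = 0.127), Ly86 by 0.39 (adjusted p = 0.168) and Aif1 by 0.22, all with overlap. Itgam and Inpp5d each differed by -0.02. Among activation genes the surface glycoprotein gene Cd52 differed by 0.52 (adjusted p = 0.0891), Ctss by 0.37 (adjusted p = 0.0943), Fcgr3 by 0.55 (adjusted p = 0.127), Cd68 by 0.31 and Cd74 by 0.22. MPTP and saline values did not overlap for 14 of 34 members, all higher after MPTP, beside 11.1% of all genes higher without overlap.

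The midbrain count too depended on single arrays. Saline replicate 2 had the lowest value of its group for 26 of 34 members and was also the saline midbrain array of lowest interquartile range. Without it no member was called, beside 1.01% of all tested genes, and the members' median difference was 0.18. No member was called without MPTP replicate 1 or without MPTP replicate 3 (median differences 0.26 and 0.24), beside 1.15% and 0.102% of all tested genes, and 2 were called without saline replicate 3, beside 0.724%. Without saline replicate 1 or MPTP replicate 2 the counts were 11 and 10, beside 8.15% and 2.08% of all tested genes.

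**Figure D2:**
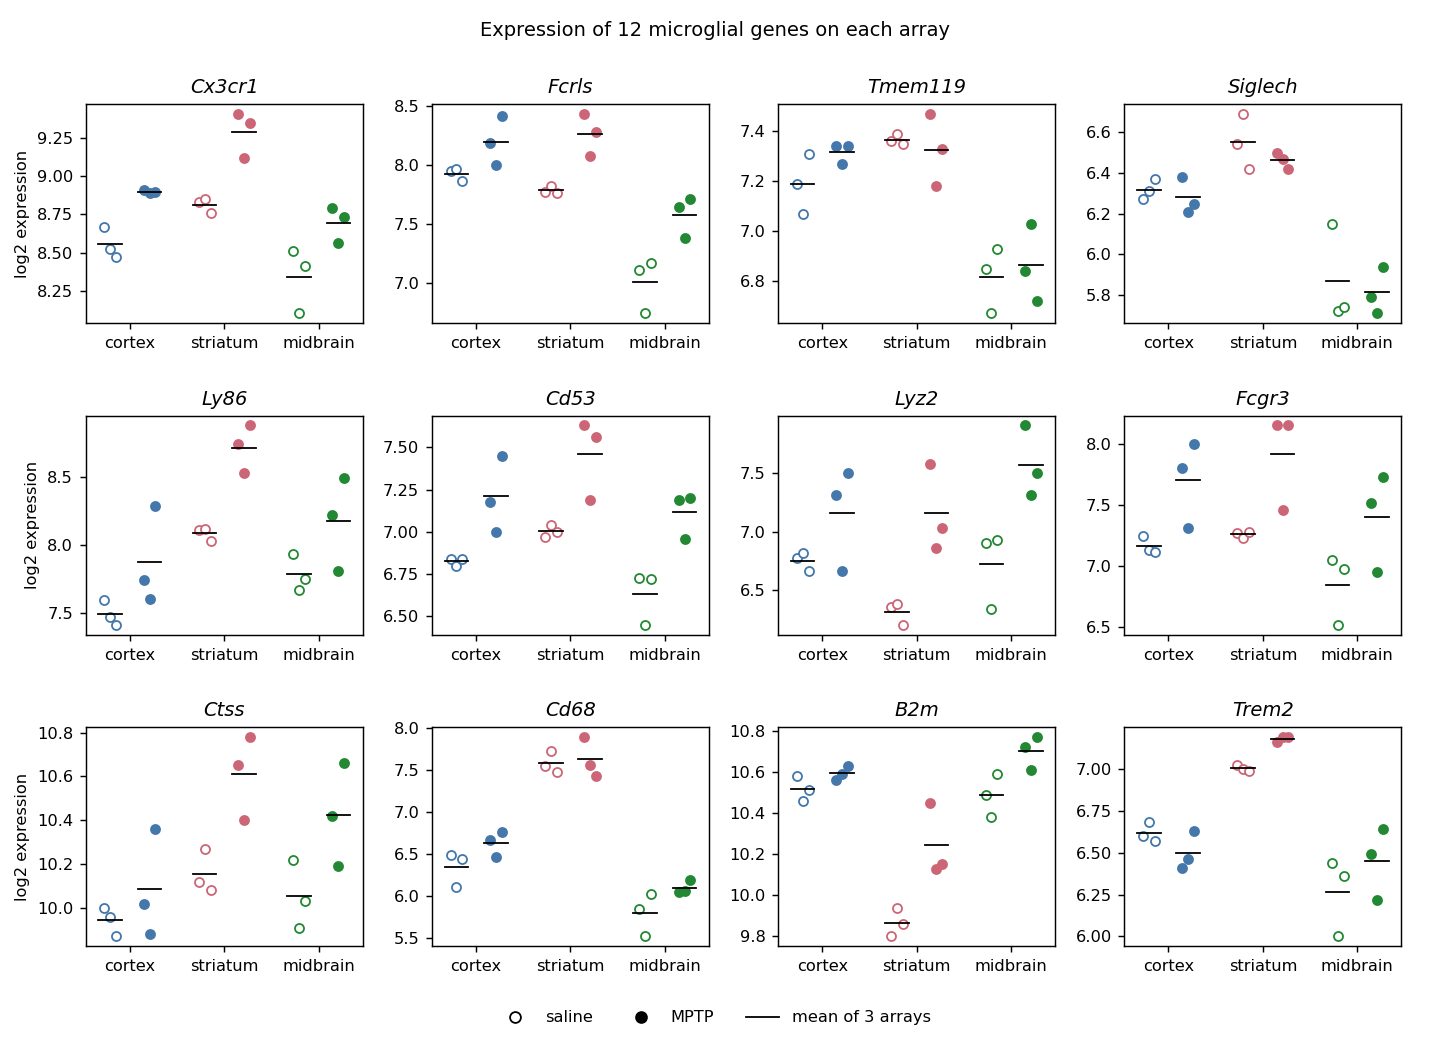
Log2 expression of 12 microglial genes on each of the 18 arrays, by region, with open circles for saline, filled circles for MPTP and lines for means of 3 arrays. In Cx3cr1 the MPTP arrays lie above the saline arrays of the same region in all 3 regions, and in Siglech the groups overlap in each.

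In frontal cortex, outside the nigrostriatal projection, limma called none of the 34 members and 0.0681% of all tested genes. At an unadjusted p under 0.05 stood 10 members, each with a positive difference, beside 6.13% of all genes in either direction. The median change was 0.14, beside 0.04 for all tested genes. Cx3cr1 was 8.67, 8.52 and 8.47 in saline and 8.91, 8.89 and 8.90 in MPTP cortex. The MPTP arrays lay close together and above all saline arrays (0.35, SE 0.10, limma adjusted p = 0.313). Differences without overlap were also those of Mertk (0.33), Fcrls (0.27), P2ry13 (0.20), Ptprc (0.57), Ly86 (0.39), Cd53 (0.38), Fcgr3 (0.54) and Tyrobp (0.24), and these 9 members compare with 10.2% of all genes higher without overlap. Among the 9, Ptprc entered the tests through its MPTP arrays and adds no support. In Fcgr3, with 7.25, 7.13 and 7.12 in saline and 7.80, 7.31 and 8.0 in MPTP cortex, replicate 2 was again the MPTP array nearest to saline. Lyz1 (0.52), Cd52 (0.46), Lyz2 (0.41), Irf8 (0.30) and Cd68 (0.28) had overlapping groups, and Cd74 (-0.18), Trem2 (-0.11) and P2ry12 (-0.08) had negative differences that did not pass the threshold.

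Averaged over the 3 regions, the change after MPTP was called for 20 of 34 members, all higher. Limma, with treatment and replicate number as a random block, called 6.61% of all tested genes higher and 2.43% lower. The mean uses the same arrays as the regional comparisons and is no separate evidence. The members' median was 0.23, beside 0.01 for all genes. The difference had a positive sign in all 3 regions for 27 of 34 members (79.4%), beside 2965 of 11741 tested genes (25.3%). Among the 27 is Ptprc, which entered the tests through its MPTP arrays and adds no support. Siglech was the member with a negative difference in all 3 regions.

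Of the 12 resting-state genes 7 were called in the mean. Fcrls changed by 0.44 (SE 0.07, limma adjusted p = 0.000534), Cx3cr1 by 0.39 (SE 0.06, adjusted p = 0.000259), Mertk by 0.33, Gpr34 by 0.30, Olfml3 by 0.29, Tgfbr1 by 0.25 and Csf1r by 0.18. The other 5 were not called, and they include the nucleotide receptors and the surface markers: P2ry13 had 0.18, Selplg 0.13, P2ry12 0.11, Tmem119 0.04 and Siglech -0.06. The 95% interval of the mean change was -0.08 to 0.17 for Tmem119, -0.20 to 0.08 for Siglech and -0.04 to 0.25 for P2ry12. These intervals lie below the estimate for Cx3cr1, whose own interval was 0.27 to 0.52, though the differences between genes were not tested. The other probe sets of Tgfbr1, dim ones, had -0.13 and -0.05 in the mean.

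Of the 8 lineage genes 4 were called in the mean. Ly86 changed by 0.47 (SE 0.09, limma adjusted p = 0.00171), Cd53 by 0.44 (SE 0.07, adjusted p = 0.00059) and Laptm5 by 0.32 (SE 0.10, adjusted p = 0.0454). The fourth was Ptprc, with a difference of 0.55 (SE 0.12, limma adjusted p = 0.00492). Its saline means of 5.02 in cortex, 5.02 in striatum and 4.82 in midbrain all lay below 5.18, so it entered the tests through its MPTP arrays and its call supports nothing. Its MPTP striatal mean lay 0.35 above 5.18, a distance taken from those same arrays. The second Ptprc probe set, a dim one, had 0.07 in striatum and 0.00 in the mean. Without Ptprc and Itgam, the members with saline means below 5.18 in every region, 19 of 32 were called in the mean. The 3 further Laptm5 probe sets at or above the filter value had 0.04, 0.01 and -0.23 in the mean, so the probe sets of this gene disagree. Laptm5 kept its call in 5 of 12 alternative settings and in 5 of 18 fits that each left out 1 array. Aif1 and Irf8 each had 0.17, Itgam 0.12 and Inpp5d 0.00, with a 95% interval of -0.14 to 0.15 for the last.

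Of the 14 tested activation genes 9 were called in the mean. Lyz1 changed by 0.75 (SE 0.13, limma adjusted p = 0.00101), Lyz2 by 0.70 (SE 0.11, adjusted p = 0.000618), Fcgr3 by 0.58 (SE 0.11, adjusted p = 0.00203) and Cd52 by 0.49 (SE 0.10, adjusted p = 0.00226). Tyrobp and Ctss each changed by 0.32, Fcer1g, the Fc receptor gamma chain, by 0.25, B2m by 0.22 and Ctsd by 0.18. Cd68 (0.21), the cathepsin gene Ctsz (0.15), Trem2 (0.08), the asparaginyl protease gene Lgmn (0.06) and Cd74 (0.02) did not pass the threshold. The 95% interval was -0.06 to 0.23 for Trem2 and -0.17 to 0.20 for Cd74. Of the other Lyz1 probe sets, both dim, 1 changed by 0.61 and the other by -0.10. Cst7, a cystatin gene, and Itgax, the integrin CD11c, which mark microglia near amyloid plaques and in demyelination, lay below 5.18 on all 18 arrays, with values of 3.24 to 4.0 and 3.53 to 4.08, and were not tested.

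Resting-state and activation genes were then set side by side. In striatum 5 of 12 resting-state and 3 of 14 tested activation genes were called, with median changes of 0.33 and 0.32. In midbrain the counts were 1 and 2 and the medians 0.20 and 0.29, in cortex 0 and 0 and 0.11 and 0.16, and in the mean over the regions 7 and 9 and 0.21 and 0.24. The lineage genes, with Ptprc and Itgam included, had medians of 0.25, 0.31, 0.25 and 0.25 in the same order. No resting-state gene was called lower after MPTP in any region or in the mean. At an unadjusted p under 0.05, resting-state genes numbered 8 in striatum, 4 in midbrain, 2 in cortex and 9 in the mean (where 24.3% of all tested genes did), each with a positive difference. The mean level of the 12 resting-state genes lay 0.46, 0.16 and 0.28 above the saline mean on the MPTP striatal arrays, and that of the 14 activation genes 0.56, 0.21 and 0.31. On each of these arrays both classes were above every saline striatal array, and replicate 1 was highest and replicate 2 lowest for both. In midbrain the resting-state genes lay 0.25, 0.20 and 0.21 above the saline mean and the activation genes 0.46, 0.22 and 0.44, with saline arrays at -0.14 to 0.11 and -0.21 to 0.11. In cortex they lay 0.13, 0.08 and 0.17 and 0.20, 0.00 and 0.39 above it.

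**Figure D3:**
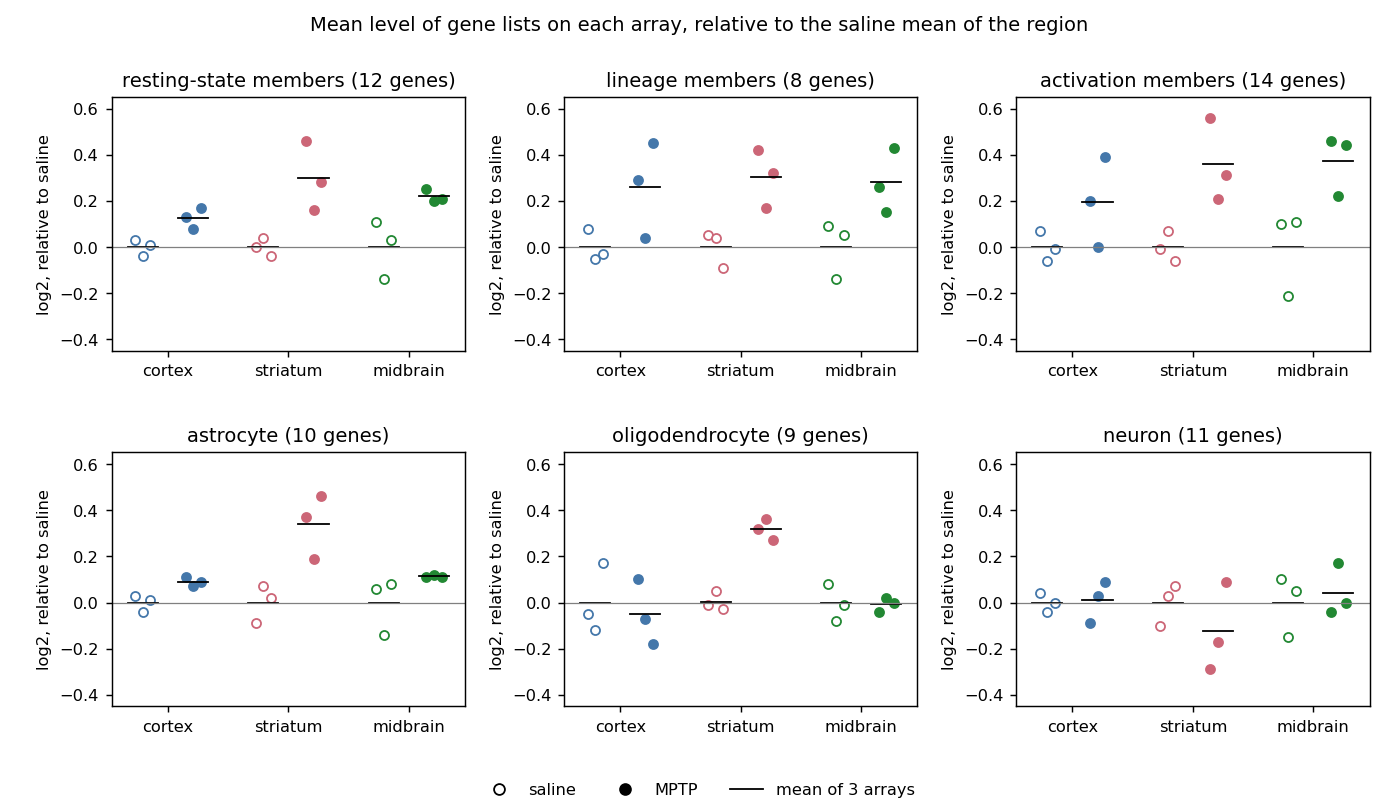
Mean log2 level of the 3 microglial classes and of astrocyte, oligodendrocyte and neuron marker lists on each array, relative to the saline mean of its region, with open circles for saline, filled circles for MPTP and lines for means of 3 arrays. MPTP striatal arrays lie 0.16 to 0.46 above the saline mean for resting-state genes and 0.21 to 0.56 for activation genes.

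MPTP replicate 2 had the lowest value of its group for 26 of 34 members in cortex, for 21 in striatum and for 21 in midbrain. MPTP replicate 3 was highest for 22 members in cortex and for 16 in midbrain. The array numbered 2 was thus the lowest MPTP array for most members in each region. For how many of all tested genes it was lowest was not computed, so these counts are no result particular to the members.

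Whether the members' response differed between regions was tested directly. None of the 34 members was called by limma in any of the 3 tests, beside 0.0596% of all tested genes for striatum against cortex, 0.0681% for striatum against midbrain and 0% for midbrain against cortex. At an unadjusted p under 0.05 stood 6 members for striatum against cortex (7.75% of all genes), namely P2ry12 (0.45), Gpr34 (0.43), Olfml3 (0.33), B2m (0.30), Selplg (0.27) and Csf1r (0.26), with adjusted p from 0.566 to 0.633. All 6 had a larger change in striatum, and 5 of them are resting-state genes. No member reached an unadjusted p under 0.05 for striatum against midbrain (5.89% of all genes) or for midbrain against cortex (4.97%). The counts called within single regions therefore do not show that the response differed between regions.

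The levels of the members in saline animals gave the regional background of these changes. The resting-state genes were lower in midbrain: 11 of 12 lay below striatum and 10 of 12 below cortex, and none was higher. Over all tested genes limma called 24.8% lower and 33.4% higher in midbrain than in striatum, and 23.6% lower and 27.8% higher than in cortex. Mertk was 7.07, 6.77 and 7.57 in saline midbrain, 7.71, 7.83 and 8.03 in saline striatum and 8.07, 8.17 and 8.21 in saline cortex. The log2 difference of midbrain was -0.72 from striatum and -1.01 from cortex (limma adjusted p = 0.000834 and 2.09e-05). For Fcrls the differences of midbrain from striatum and from cortex were -0.78 and -0.92, for P2ry12 -0.67 and -0.56, and for P2ry13 -0.66 and -0.47. The markers Siglech (-0.68 and -0.45) and Tmem119 (-0.55 and -0.37), which did not change with MPTP past the threshold, had regional differences of similar size. The other called genes were Gpr34 (-0.48 and -0.43), Csf1r (-0.58 and -0.25), Selplg (-0.59 and -0.24) and Olfml3 (-0.45 and -0.35). Cx3cr1 differed by -0.48 from striatum (its second probe set by -0.25), and its difference of -0.21 from cortex was not called (limma adjusted p = 0.0711, and 0.0397 with the replicate number as a block). Tgfbr1 was called in neither test. Of the lineage genes, Aif1 (-0.66 and -0.61) and Inpp5d (-0.54 and -0.40) were also called lower in both tests. Laptm5 (-0.63), Cd53 (-0.37) and Irf8 (-0.69) were called lower against striatum alone. Further Laptm5 probe sets at or above the filter value had -0.54, -0.13 and 0.07. Irf8 entered the tests through its striatal arrays, so its call supports nothing. Ly86, Ptprc and Itgam were called in neither test. For every called resting-state gene all saline midbrain arrays lay below all saline arrays of the other region, beside 26.1% of all tested genes lower in midbrain than in striatum without overlap and 24.2% lower than in cortex.

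The activation genes had no common regional order. Of 14 tested, 4 were higher and 4 lower in saline midbrain than in saline striatum, with a median difference of -0.07 beside -0.59 for the resting-state genes. Cd68 (1449164_at) was 7.55, 7.72 and 7.47 in saline striatum, 6.49, 6.11 and 6.44 in saline cortex and 5.85, 5.52 and 6.02 in saline midbrain. The difference of striatum from cortex was 1.24 (SE 0.14, limma adjusted p = 6.38e-08) and that of midbrain from striatum -1.79 (SE 0.14, adjusted p = 6.44e-11). Lgmn went the other way, at 9.21, 9.10 and 9.29 in saline midbrain against 8.27, 8.56 and 8.42 in striatum (0.79, limma adjusted p = 2e-08) and 8.62, 8.44 and 8.58 in cortex (0.65, adjusted p = 4.35e-07). Ctsd was also higher in midbrain, by 0.30 and 0.27. B2m was lower in striatum than in cortex (-0.65, limma adjusted p = 2.36e-07) and than in midbrain, which stood 0.62 above it. Cd74 was lower in striatum than in cortex as well (-0.57, limma adjusted p = 0.00394). Higher in saline striatum than in cortex were also Ctsz (0.50), Trem2 (0.39), Tyrobp (0.35), Selplg (0.35), Csf1r (0.33), Cx3cr1 (0.26), Ly86 (0.60) and Irf8 (0.83). The second probe set of Trem2, a dim one, had -0.20, and that of Cx3cr1 had 0.14. Cx3cr1 kept this call in 2 of 6 fits that each left out 1 array. All saline cortical Irf8 values lay below 5.18, and Irf8 entered the tests through its striatal arrays, so its call supports nothing. Its striatal mean lay 0.44 above 5.18, a distance taken from those same arrays. The second Irf8 probe set differed by 0.42. In all, 9 members, Irf8 among them, were higher and 2 lower in saline striatum than in saline cortex, beside 20.5% and 23.5% of all tested genes.

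**Figure D4:**
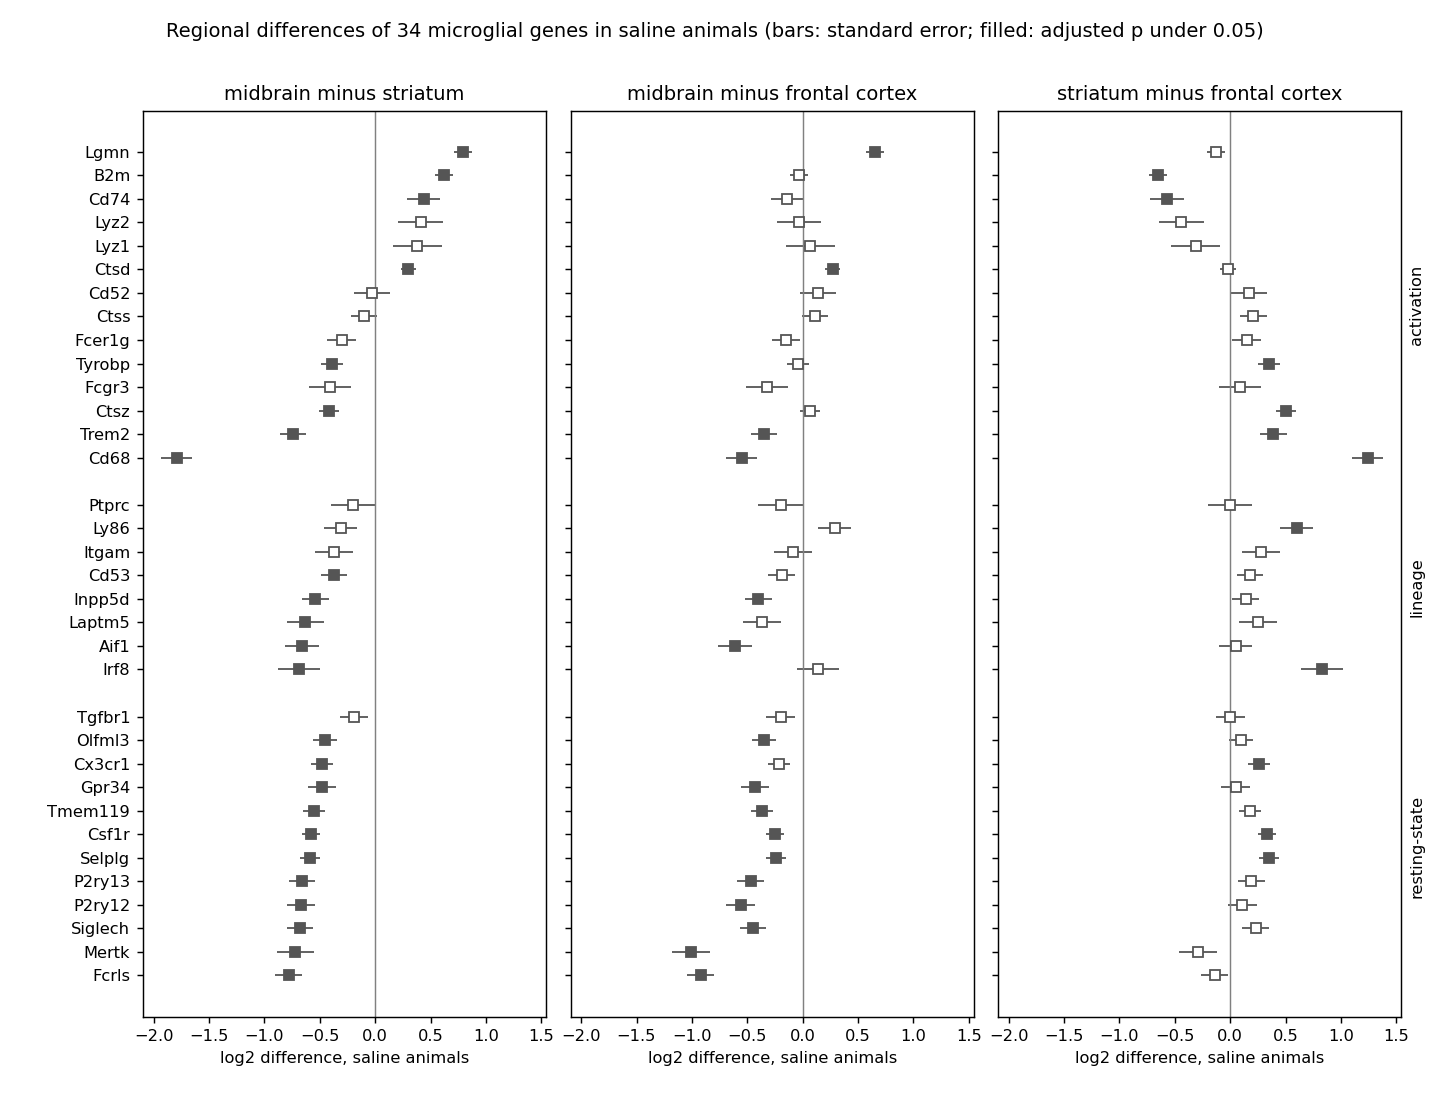
Log2 differences between regions in saline animals for the 34 tested microglial genes, 1 row per gene grouped by class. Points are limma estimates from 3 arrays per group, bars are standard errors and filled squares have an adjusted p under 0.05. The resting-state genes lie left of 0 in both midbrain panels, and in the panel of midbrain against striatum Cd68 (-1.79) and Lgmn (0.79) lie at opposite ends.

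After MPTP, Fcrls and Cx3cr1 were again lower in midbrain than in striatum. Fcrls was 8.43, 8.07 and 8.28 in MPTP striatum against 7.64, 7.38 and 7.71 in MPTP midbrain, and Cx3cr1 was 9.41, 9.12 and 9.35 against 8.79, 8.56 and 8.73. For both genes the MPTP midbrain values lay below all MPTP striatal values. The same held for the other resting-state genes except Tgfbr1, whose groups overlapped. In saline, 26.1% of all tested genes were lower in midbrain than in striatum without overlap. The share of all tested genes after MPTP was not computed. Cd68, whose regional difference was larger than any MPTP change of a member, was 7.89, 7.56 and 7.43 in MPTP striatum and 6.05, 6.06 and 6.19 in MPTP midbrain.

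Other genes of the microglial pathways were read by lists. Of 11 tested ligands of microglial receptors, among them the fractalkine gene Cx3cl1 and the Csf1r ligands Csf1 and Il34, 1 was called in striatum: Clu, which encodes the apolipoprotein clusterin, a ligand of Trem2, changed by 0.53 (SE 0.07, limma adjusted p = 0.000169). In the mean over the regions Clu changed by 0.23 and was again the called gene. The ligands' median change was 0.10 in striatum, 0.08 in midbrain, 0.05 in cortex and 0.03 in the mean. Of 9 tested signalling and transcription genes, 1 was called in midbrain and 2 in the mean over the regions, among the latter the TGF-beta receptor gene Tgfbr2 (0.29). Over all tested genes 1.29% were called higher and 0.809% lower in striatum, and 2.15% and 0.383% in midbrain. In the mean these shares were 6.61% and 2.43%. Calls of 1 or 2 genes are no result about a list of this size.

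Inflammatory effector genes were mostly dim. Of 24 listed, 23 were on the array and 7 were tested. The 13 below 5.18 on all 18 arrays included the cytokine genes Il1b, Il1a and Il6, the chemokine genes Ccl2, Ccl3, Ccl12 and Cxcl10, the nitric oxide synthase gene Nos2 and the pattern receptor genes Tlr2, Tlr4 and Clec7a. Of the 7 tested, Cd14, the lipopolysaccharide co-receptor, was called in midbrain (0.98, SE 0.19, limma adjusted p = 0.0107), where its saline mean of 4.83 lay below 5.18, and in the mean (0.70), and the NADPH oxidase subunit gene Cyba in the mean (0.26). Their median change was 0.06 in striatum, 0.08 in midbrain and -0.01 in cortex. Of 7 tested antigen presentation genes beside B2m and Cd74, the MHC class I heavy chain gene H2-D1 was called in striatum (0.39, SE 0.10, limma adjusted p = 0.0329) and in the mean (0.20). Of 15 further lysosomal genes, 1 was called in striatum, Ctsl (0.38, limma adjusted p = 0.00529), 1 in midbrain, Lamp2 (0.33, adjusted p = 0.0475), and 2 in the mean, Lamp2 (0.23) and Ctsc (0.41). The lysosomal medians were 0.17 in striatum, 0.07 in midbrain and 0.11 in the mean. Beside these counts, 1.29% of all tested genes were called higher in striatum, 2.15% in midbrain and 6.61% in the mean. Calls of 1 or 2 genes are no result about lists of this size.

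Markers of other cell types were read on the same arrays. Of 9 border macrophage markers 6 were below 5.18 on all arrays, among them Cd163, Lyve1 and Ms4a7. Their mean level was 4.06 to 4.25 in saline and 4.05 to 4.12 in MPTP striatum, so it was no higher there, but 4.17 to 4.30 in saline and 4.45 to 4.51 in MPTP midbrain. Neither of the tested ones, Mrc1 and Pf4, was called in any region. Of 10 monocyte and neutrophil markers on the array 7 were below 5.18 on all arrays, and their mean level was 3.87 to 4.04 in saline and 4.26 to 4.49 in MPTP midbrain, 3.89 to 4.0 and 4.04 to 4.14 in striatum, and 4.02 to 4.11 and 4.07 to 4.32 in cortex. These list means lie below 5.18, and Ccr2, the 1 tested gene of the list, had differences of -0.11 in striatum, -0.17 in midbrain and -0.10 in cortex, none called. The part of such cells in the rise of Lyz1, Lyz2 and Cd53, which they also express, was not tested. Of 11 lymphocyte markers 8 were below 5.18 on all arrays, and none of the 3 tested was called. Of 3 red blood cell markers on the array Alas2, the haem synthesis gene of erythroid cells, was tested. It differed by 0.48 in striatum, 0.65 in midbrain and 0.47 in cortex, and by 0.53 in the mean (limma adjusted p = 0.0643), none called. Astrocyte markers moved with the members in striatum: 4 of 10 were called higher, beside 1.29% of all tested genes. They were led by Gfap (1.17, SE 0.15, limma adjusted p = 6.32e-05), and the list's mean was 8.89 to 9.05 in saline and 9.17 to 9.44 in MPTP striatum. In midbrain 2 of 10 were called higher, Gja1 (0.44) and Slc1a2 (0.28), beside 2.15% of all tested genes. The astrocyte list's mean there was 9.63 to 9.84 in saline and 9.87 to 9.89 in MPTP. Oligodendrocyte markers also moved with the members in striatum, with 5 of 9 called higher, beside 1.29% of all tested genes. Their mean was 10.24 to 10.33 in saline and 10.55 to 10.63 in MPTP striatum. General neuronal markers had 10.70 to 10.86 in saline and 10.50 to 10.88 in MPTP striatum, with none of 11 called. The part of tissue makeup in the members' values was not tested.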

How the data were processed

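Per the labels' protocols, total RNA of each of the 18 samples went onto an Affymetrix mouse array of its own. The deposited log2 values, from 2.48 to 14.2, had been made by the authors with RMA, per the submitters' processing notes. Its version is not given in the sources used here. This method aligns the arrays' distributions, so a shift of all genes in a group would be largely removed, although array medians still ran from 5.14 to 5.21. Of 45101 probe sets 34958 named 1 gene, 932 several and 9211 none in the table used, and genes were named from the first kind alone, with symbols updated by Entrez ID through RefSeq GRCm38.p6 for 34754. Limma 3.58.1 in R 4.3.3 was fitted to 6 group means over all 18 arrays with an intensity trend in the variance, 12 residual degrees of freedom (23.2 after moderation) and Benjamini-Hochberg adjustment over 11741 genes. Precision is limited by having 3 arrays in a group, and where animals were shared between regions is not stated. For the mean over the regions, arrays sharing treatment and replicate number formed a random block, whose correlation was estimated at 0.00558. All members were reported, those called after MPTP in a single region with their values per array and, in each class and region, the 4 uncalled ones of smallest p, and in other lists up to 4 called genes. The members, classes, lists and tests were chosen with earlier results of these data known. The alternatives were other filters, normalizations, probe set rules, variance models and blocks, and leaving out each array. Added after seeing the data were the interquartile range as a covariate, omitting each region's saline array of narrowest spread, and 1 mean per animal number. The procedure was tested on simulated data. Proteins were not analysed here. The values of 1 called signalling gene are not reported here.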

Additional observations from a re-analysis of the deposited data

How the results depend on the processing

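No difference of a member turned its sign past the threshold under any alternative. In the mean over the regions 13 of the 20 called members kept their call in every setting that tested them and without each array in turn: Cx3cr1, Fcrls, Olfml3, Ly86, Cd53, Ptprc, Tyrobp, Fcgr3, Lyz1, Lyz2, B2m, Cd52 and Ctss, or 12 without Ptprc, whose saline means lay below the filter value. In striatum none of the 9 and in midbrain none of the 4 did, and Cx3cr1 and B2m kept the striatal call in all settings that kept every array or left out the saline arrays of low interquartile range. Of 34 members, those called in striatum (9) became 5 with no filter, 15 after a second quantile normalization, 3 with the mean over a gene's probe sets, 3 without the intensity trend, 16 with the interquartile range as a covariate and 4 without each region's saline array of narrowest spread. Those in midbrain (4) became 1, 1, 8, 7, 7 and 0 with the mean over probe sets, without the trend, with array weights, with the replicate block, with the interquartile range as a covariate and without those saline arrays. With the filter at the 75th percentile, which tests fewer genes (19 members), the mean over the regions gave 13, saline midbrain against cortex 10 and against striatum 15. The cause of the other changes was not tested. Member counts under the alternative settings stand here without the share of all tested genes called in the same setting. They do not show whether the members moved apart from other genes. Leaving out each array in turn gave 0 to 13 calls in striatum, 0 to 11 in midbrain, 0 in cortex, 14 to 21 in the mean, 10 to 11, 13 to 17 and 23 to 25 for the saline regions (striatum against cortex, midbrain against cortex, midbrain against striatum) and 0 in each test of regional response. The deviations of same-numbered arrays from their group means correlated at -0.194 to 0.294 between treatments (over 0.1 in 3 of 9 pairs) and at -0.233 to 0.342 between regions (11 of 18), so the numbers were not taken to pair the arrays of MPTP with those of saline. All 3 pairs were over 0.1 for saline cortex with midbrain (0.225 to 0.342) and for MPTP striatum with midbrain (0.117 to 0.183), where the labels do not say that animals were shared. With the replicate block the counts were 12 in striatum, 7 in midbrain, 0 in cortex, 23 in the mean and 18 in saline midbrain against cortex. Taking 1 mean per animal number gave 16 in the mean.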

Other observations

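Beside the microglial genes, some markers of vessels and of myelin were called in the mean over the regions, where 6.61% of all tested genes were called higher and 2.43% lower. Of 8 tested endothelial markers 3 were called higher by limma and 5 were not called, with a median difference of 0.09: Vwf, the von Willebrand factor gene, changed by 0.89 (SE 0.14, adjusted p = 0.000347), the transporter gene Slco1a4 by 0.31 (adjusted p = 0.000855) and the growth factor receptor gene Flt1 by 0.28 (adjusted p = 0.0151). Of 9 tested oligodendrocyte markers 2 were called higher, the myelin tight-junction gene Cldn11 (0.46, limma adjusted p = 0.000259) and the galactolipid synthesis gene Ugt8a (0.39, adjusted p = 0.000241), and 1 was called lower, the myelin membrane gene Opalin (-0.45, adjusted p = 0.00173). The other 6 were not called, and the median was 0.10. Opalin differed most in midbrain among the regions, at 9.64 in saline and 8.89 in MPTP (log2 change -0.74, SE 0.15, limma adjusted p = 0.0103). Of 2 tested choroid plexus markers Ttr, the transthyretin gene, was lower in the mean (-1.22, SE 0.32, limma adjusted p = 0.0194), with means of 10.31 in saline and 8.52 in MPTP striatum, where the groups overlapped and the difference was not called (-1.79, SE 0.55, adjusted p = 0.0897).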
